A study of Mus musculus with 6 samples.

Results

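The endosomal nucleic acid sensing genes described here are the Toll-like receptors Tlr3, Tlr7, Tlr8, Tlr9 and Tlr13, their chaperone Unc93b1, the nucleases Pld3, Pld4 and Dnase2a, and the carrier Slc15a4. A member had to lie on an array row annotated with its symbol alone, and its brightest such row over the 6 arrays was used. By this rule 9 of the 10 named genes were found, among 22180 genes in all. Dnase2a lay on 2 rows, both shared with a second gene, so no value is given for it. Each of the 9 had a single row. The members were chosen by their DB2313 and vehicle signals, with a lower Tlr7 set beside a higher Pld4, so their differences between those groups are given as a description with no test.

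RNA levels were read with Affymetrix arrays in PU.1low URE-/-, a murine cell line of acute myeloid leukaemia. DB2313-treated cells received this small molecule, named as a PU.1 inhibitor, at 330 nM for 24 h (3 arrays), and vehicle-treated cells the same volume of water for 24 h (3 arrays). Both groups thus lacked the upstream regulatory element (URE) of Spi1, the gene of the transcription factor PU.1, and all 6 samples came from 1 line grown out of 1 leukaemic mouse. The arrays are named as biological replicates without saying how they were started, so every spread and p-value below measures only the variation between these samples.

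Endosomal Toll-like receptors detect nucleic acids that a cell has taken up and delivered to acidic compartments, which keeps them away from the cell's own RNA and DNA. Unc93b1 escorts them there from the endoplasmic reticulum, lysosomal nucleases trim or destroy their ligands, and signals leave through the adaptors MyD88 and TRIF towards NF-kB and interferon regulatory factors. In myeloid cells this route drives inflammatory cytokines, and in plasmacytoid dendritic cells it drives type I interferon.

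Array signals are on the log2 scale, where 1 unit is a 2-fold difference, and signals of different genes are not compared because probes bind unequally. The median signal of an array lay between 4.77 and 4.82. Spi1 fell, at 6.50 ± 0.01 with DB2313 and 6.87 ± 0.08 with vehicle (SD, n = 3 each), a log2 difference of -0.37 (SE 0.06, limma adjusted p = 0.0342), and that call was lost without any 1 of the 6 arrays (adjusted p from 0.0648 to 0.134). In those fits the Spi1 difference ran from -0.41 to -0.34, and between 136 and 187 genes were called over the whole table against 401. Among markers of the labelled myeloid leukaemia, the granule protease gene Elane was at 13.05 in both groups, and Cebpa, a granulocytic transcription factor, at 9.59 with DB2313 and 9.57 with vehicle. Ptprc, the pan-leukocyte surface phosphatase, was at 3.31 with DB2313 and 3.32 with vehicle, and Cd34, a progenitor marker, at 4.63 with DB2313 and 4.59 with vehicle. Not all markers of this list were so level. Named after their values were seen, Mpo was higher on every DB2313 array (log2 difference 0.29, limma adjusted p = 0.281), and Itgam had -0.27 with overlapping groups. Over all 10 markers of the list the array means were 8.32 to 8.45 with DB2313 and 8.34 to 8.44 with vehicle. Markers of other cells were averaged on each array. Over 10 macrophage markers the means were 4.68 to 4.72 with DB2313 and 4.74 to 4.798 with vehicle. Over 7 T and NK cell markers they were 4.19 to 4.25 with DB2313 and 4.28 to 4.38 with vehicle. The mean of each list was thus lower on every DB2313 array. Single macrophage markers went both ways, from a log2 difference of -0.47 for Cd68 to 0.11 for Mrc1, with a median of -0.04. Over 9 plasmacytoid dendritic cell markers the means were 4.954 to 5.03 with DB2313 and 4.935 to 4.951 with vehicle, higher on every DB2313 array. Single markers of this list also went both ways, from -0.07 for Siglech to 0.18 for Klk1, with a median of 0.04. The groups overlapped over 8 conventional dendritic cell markers (5.12 to 5.28 with DB2313 and 5.278 to 5.36 with vehicle) and over 8 B cell markers (3.904 to 4.002 with DB2313 and 3.93 to 4.06 with vehicle). No gene of these 5 lists passed the test in either direction. Of 2 more markers chosen after their values were seen, Cd68, a lysosomal glycoprotein of macrophages, was lower on every DB2313 array. It was at 6.99 ± 0.13 with DB2313 and 7.46 ± 0.12 with vehicle (SD, n = 3 each), a log2 difference of -0.47 (limma adjusted p = 0.0554). Bst2, an antiviral membrane protein, was higher on every DB2313 array, at 6.71 ± 0.01 with DB2313 and 6.56 ± 0.06 with vehicle (SD, n = 3 each), a log2 difference of 0.15 (limma adjusted p = 0.356). How far the macrophage mean rested on Cd68, or the plasmacytoid dendritic cell mean on Bst2, was not tested. The part of these markers in the members' differences was not tested.

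Because total RNA of whole cultures was measured, fewer cells that express a gene and less of its RNA per cell cannot be told apart.

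Promoter sequences were available for 8 of the 10 genes, all but Tlr7 and Unc93b1. They span 250 bases before to 50 bases after the transcription start in RefSeq, build GRCm38.p6. PU.1 binds DNA at purine-rich ETS sites, so the windows were searched on both strands for GAGGAA and for the longer GAGGAAGT, which contains it. GGAANNGAA stood for a composite of ETS and IRF sites and can overlap either of these, GAAANNGAA for an IRF site and TGANTCA for an AP-1 site. The stretches below are shown because they carry every PU.1-type match in these windows. Capitals mark matches to any of these motifs, and a match on the opposite strand reads as its complement (TTCCTC, ACTTCCTC).
Pld4, chr12:112760653-112760682, + strand: ctcagaacaaaGAGGAAGTGAAtggaaggg
Tlr9, chr9:106222597-106222626, + strand: gtgaaagtgtcACTTCCTCaattctctgag
Tlr9, chr9:106222474-106222503, + strand: ggagagtggaaaGAGGAAggggttgagggg
Tlr13, chrX:106143180-106143209, + strand: aaaaaaagagaaGAGGAAggaaatgtctca
Tlr8, chrX:167264389-167264418, - strand: tataaatgacttTTCCTCtgaaTTCAGTTT

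GAGGAA was present in 4 of the 8 promoters, those of Tlr8, Tlr9, Tlr13 and Pld4, against 28.3% of all 32851 promoter windows. The longer GAGGAAGT was present in 2 of the 8, Tlr9 and Pld4, against 3.2% of all windows. In Pld4 it began at base 10 after the start and ran into the composite motif, which spanned bases 12 to 20 and was found in no other of the 8 and in 8.24% of all windows. In Tlr9 the longer motif lay on the opposite strand at bases 11 to 18 after the start, with a second GAGGAA at -112 and an AP-1 match at -58 (7.81% of all windows). The IRF motif (8.56% of all windows) was present in Tlr8, partly cut off at the end of the stretch shown, and in Pld3. No motif of these 5 was matched in the windows of Tlr3, Dnase2a and Slc15a4. These are letter matches in fixed windows, and binding of PU.1 was not measured. Nothing is read from these shares, since the members were chosen from these data and Tlr7 and Unc93b1 had no window. Dnase2a had a window but no signal of its own.

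**Figure D1:**
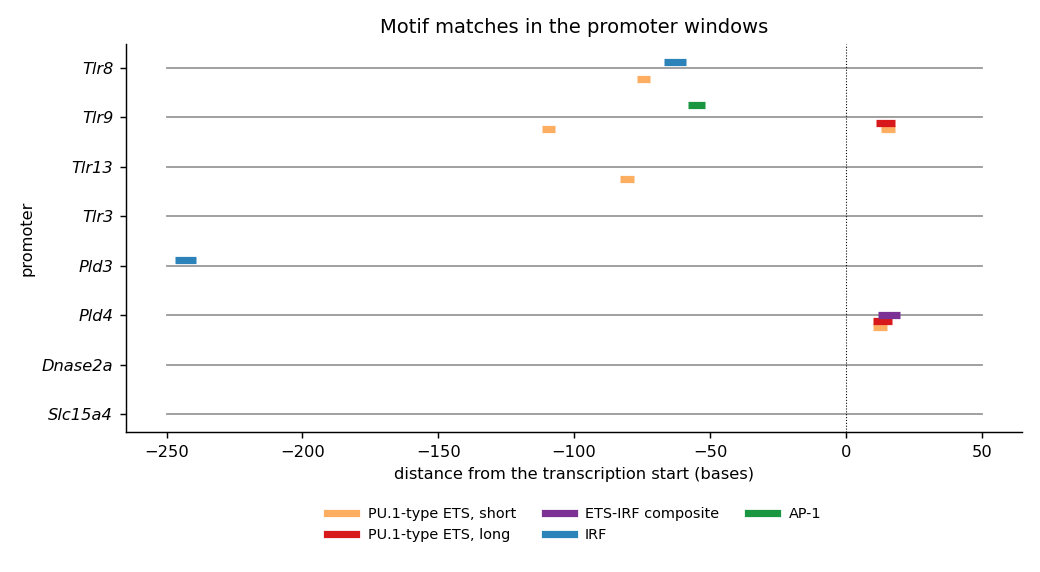
Places of the 5 motifs in the promoter windows of 8 genes, as distance in bases from the transcription start (dotted line). Each coloured bar is a match on either strand. The long PU.1-type matches of Tlr9 and Pld4 both lie 10 to 18 bases after the start, and 3 windows are empty.

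Among the receptors, Tlr7, which senses single-stranded RNA, was the gene with the widest difference. Its signals were 5.29, 5.62 and 5.29 with DB2313, against 6.40, 6.34 and 6.10 with vehicle. All 3 DB2313 arrays lay below all 3 vehicle arrays, with 0.47 log2 units between the nearest arrays of the groups, more than the range within either group (0.34 with DB2313 and 0.30 with vehicle). The means were 5.40 ± 0.19 with DB2313 and 6.28 ± 0.16 with vehicle (SD, n = 3 each), so Tlr7 was 1.84-fold lower with DB2313 (95% interval of the fitted difference 1.52 to 2.23, not corrected for choosing the gene). Its difference ranked 27 from the most negative of the 22180 genes.

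Tlr8, the close relative of Tlr7 and its direct neighbour on the X chromosome, was also lower. Signals of 2.96, 3.03 and 2.83 with DB2313 stood against 3.20, 3.17 and 3.54 with vehicle. The groups did not overlap, but only 0.14 separated the nearest arrays, less than the range within either group, and vehicle replicate 3 was the high value. The log2 difference was -0.36 (SE 0.11), or 1.28-fold lower. Prps2, the gene on the other side of Tlr7 and a phosphoribosyl pyrophosphate synthetase, had a log2 difference of 0.05 (interval -0.10 to 0.19, limma adjusted p = 0.818). Tmsb4x, encoding the actin-binding thymosin beta and lying on the other side of Tlr8, had -0.24 (interval -0.39 to -0.08, limma adjusted p = 0.174).

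The remaining 3 receptors had overlapping groups. Tlr9, the sensor of unmethylated CpG DNA, had signals of 4.38, 4.54 and 4.57 with DB2313 and 4.37, 4.51 and 4.52 with vehicle. Its log2 difference was 0.03, with an interval from -0.15 to 0.21. The long PU.1-type motif shown above was present in Tlr9 on the opposite strand, and in Pld4, where it ran into the composite motif. Pld4 had a log2 difference of 0.93, and a link between motif and difference was not tested. Tlr13, which in mice recognises bacterial ribosomal RNA, had 3.63, 3.68 and 3.66 with DB2313 and 3.98, 3.59 and 3.80 with vehicle. The 3 DB2313 values lay within 0.05 of each other and inside the vehicle range of 0.39 (log2 difference -0.13, interval -0.36 to 0.10). That difference was -0.04 without vehicle replicate 1 and -0.23 without vehicle replicate 2.

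Tlr3 senses double-stranded RNA and, unlike the others, signals through TRIF. Its signals were 3.14, 3.27 and 3.24 with DB2313 and 2.78, 2.79 and 3.32 with vehicle. Vehicle replicate 3 alone lay above the DB2313 arrays. The log2 difference of 0.25 (interval -0.08 to 0.59) became 0.43 without that array. Tlr3, Tlr8 and Tlr13 did not pass a filter on dim genes at a mean signal of 3.89, the 0.25 quantile, and array background, which can flatten a difference, was not measured here.

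**Figure D2:**
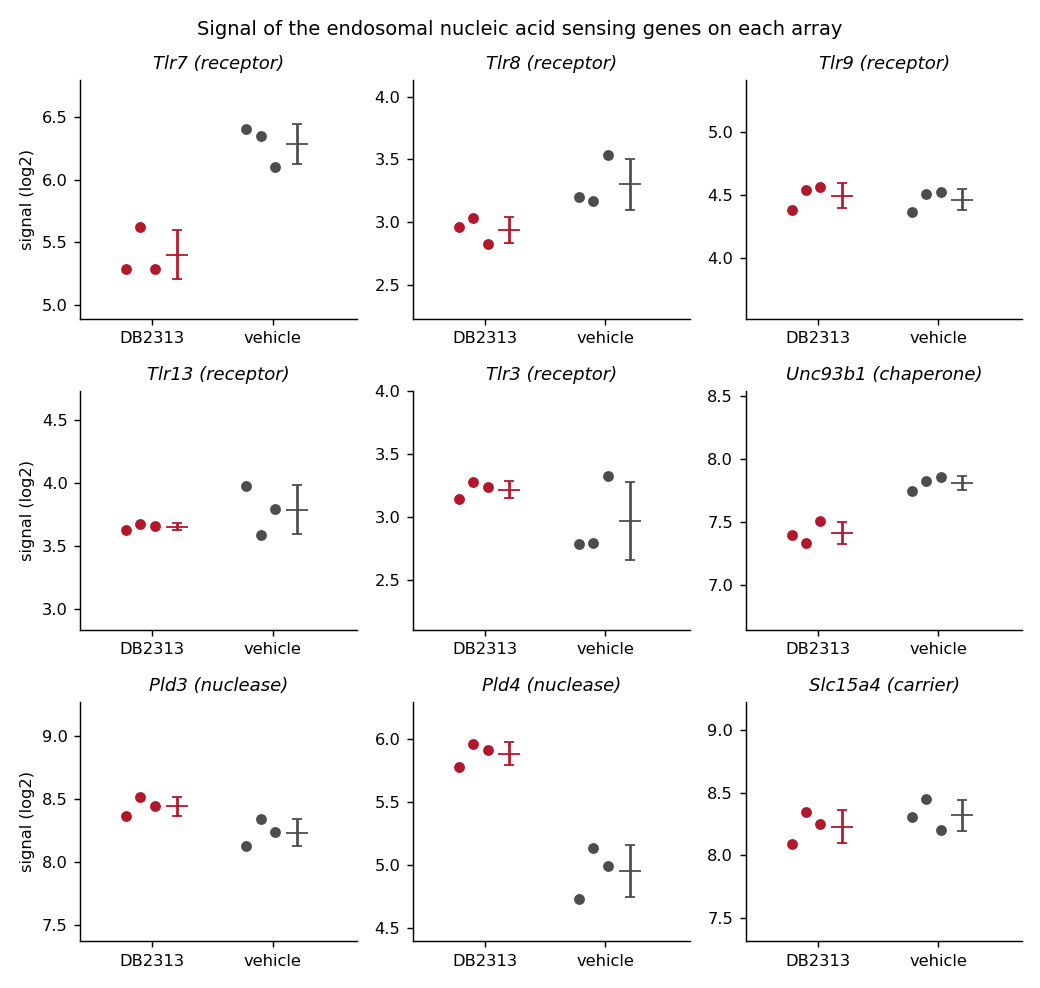
Signal (log2) of each of the 9 genes on the 3 DB2313 arrays (red, left) and the 3 vehicle arrays (grey, right), with the mean and SD beside the points. Every panel spans the same height in log2 units. Tlr7 and Pld4 show the widest gaps, in opposite directions, and Unc93b1 a narrower one.

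Unc93b1, the chaperone that all of these receptors need to leave the endoplasmic reticulum, was lower with tight replicates. Its signals were 7.39, 7.33 and 7.50 with DB2313, against 7.75, 7.82 and 7.85 with vehicle. The groups were 0.24 apart at their nearest, wider than the range within either group (0.18 with DB2313 and 0.11 with vehicle). Means of 7.41 ± 0.09 with DB2313 and 7.81 ± 0.06 with vehicle (SD, n = 3 each) made it 1.32-fold lower (interval 1.18 to 1.48). Its nearest measured neighbour, the aldehyde dehydrogenase gene Aldh3b1, had a log2 difference of -0.40 (SE 0.09) but did not pass the test (limma adjusted p = 0.0969), and Aldh3b3 on the other side had 0.02 (limma adjusted p = 0.972).

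Pld4 and Pld3 belong to the phospholipase D family. These lysosomal enzymes act as exonucleases on single-stranded nucleic acid and limit the ligands that reach endosomal receptors. Pld4 had signals of 5.78, 5.96 and 5.91 with DB2313, against 4.73, 5.14 and 4.99 with vehicle. All DB2313 arrays lay above all vehicle arrays by at least 0.64, and the vehicle arrays spread more widely (range 0.41) than the DB2313 arrays (0.18). At 5.88 ± 0.09 with DB2313 and 4.95 ± 0.21 with vehicle (SD, n = 3 each), Pld4 was 1.91-fold higher (interval 1.60 to 2.28, not corrected for choosing the gene), and its difference ranked 24 from the most positive of the 22180 genes.

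Pld3 had 8.36, 8.52 and 8.45 with DB2313, against 8.13, 8.34 and 8.24 with vehicle. Its groups were separate by only 0.02, with DB2313 replicate 1 next to vehicle replicate 2. The log2 difference was 0.21 (interval 0.03 to 0.39), or 1.16-fold. Pld3 did not pass the fit over all genes, and the gap between its difference and the 0.93 of Pld4 was not tested. Of the other family members on the lists, also named after their values were seen, Pld2 had a log2 difference of -0.22 (interval -0.49 to 0.05), Pld1 0.09 (interval -0.07 to 0.25) and Pld6 0.09 (interval -0.11 to 0.29), and none of the 3 passed.

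Slc15a4, a lysosomal histidine and peptide carrier that endosomal receptors need for full signalling, had 8.09, 8.34 and 8.25 with DB2313 and 8.31, 8.45 and 8.20 with vehicle. The groups overlapped, and the log2 difference was -0.09 with an interval from -0.31 to 0.12. Without DB2313 replicate 1 it was -0.02, and without vehicle replicate 3 it was -0.15.

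In all, 3 of the 9 genes (Tlr7 and Unc93b1 lower, Pld4 higher) were among the 401 that passed an adjusted p of 0.05 in the limma fit over all genes, where 1.81% of genes passed (1.02% higher, 0.789% lower). Groups did not overlap for 5 of the 9 (3 lower, 2 higher), against 19.3% of all genes (9.75% higher, 9.55% lower). Since the same comparison chose the genes, nothing is read from these shares. The median log2 difference of the 9 was -0.09, with 5 below 0 and 4 above, against -0.0024 over all genes. When each array was left out in turn, the log2 difference ran from -0.99 to -0.82 for Tlr7, from -0.45 to -0.36 for Unc93b1 and from 0.82 to 1.03 for Pld4. The call was kept in 6 of these 6 fits for Pld4, in 2 for Tlr7 and in 0 for Unc93b1. Adding 32 to every linear signal before taking log2 damps dim genes, and then the log2 difference was -0.56 for Tlr7, 0.53 for Pld4, -0.34 for Unc93b1 and -0.08 for Tlr8.

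**Figure D3:**
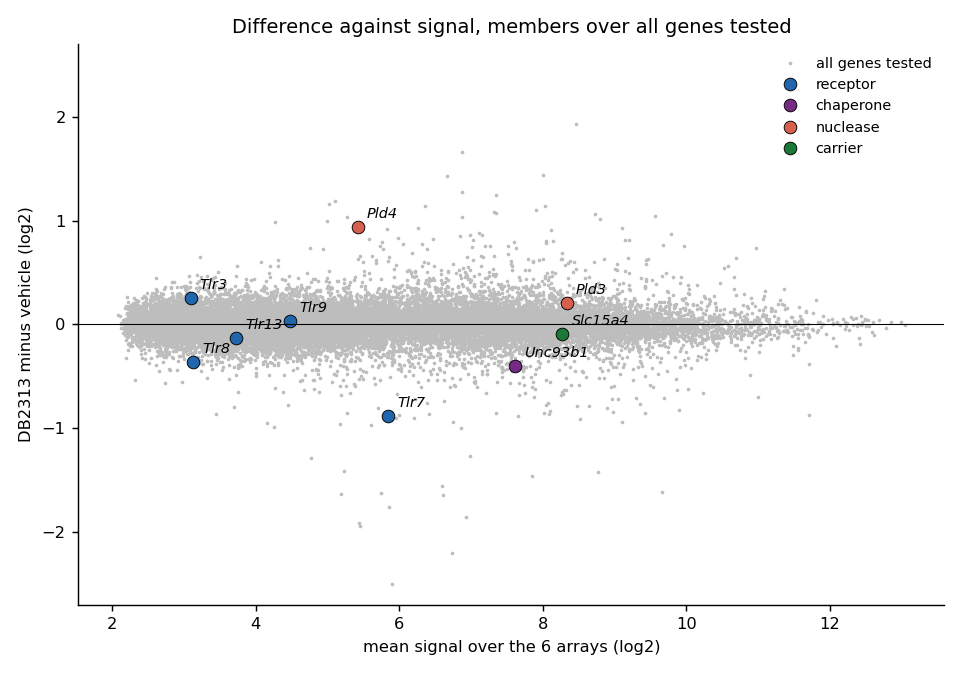
DB2313 minus vehicle (log2) against the mean signal over the 6 arrays (log2) for 22180 genes (grey), with the 9 genes coloured by role. The axis ends at 2.7 in both directions and 2 genes lie beyond it. Pld4 and Tlr7 stand outside the main band on opposite sides.

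**Figure D4:**
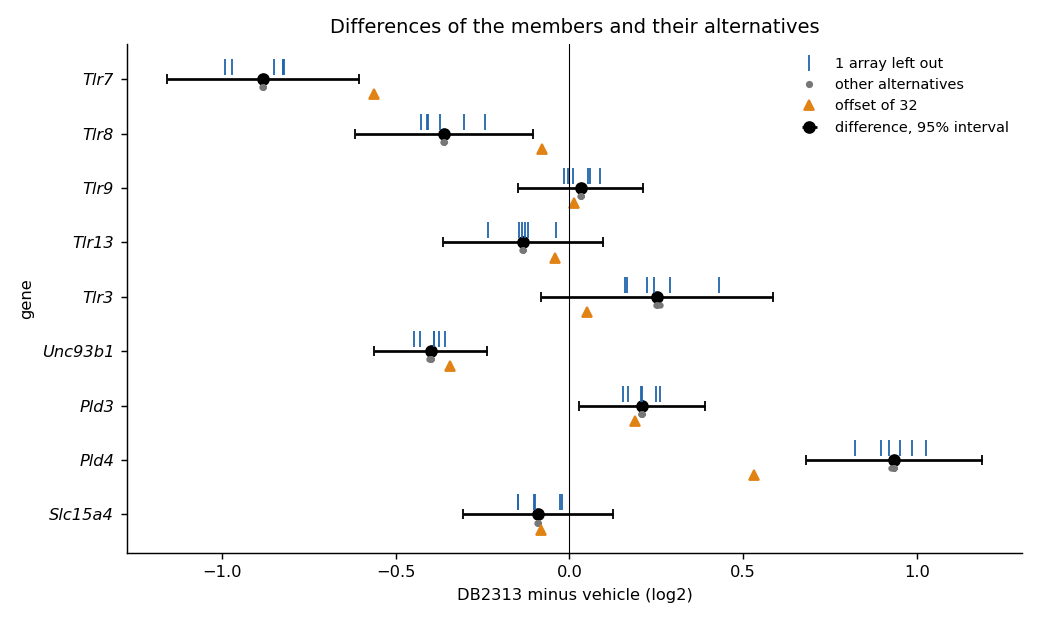
DB2313 minus vehicle (log2) for the 9 genes with its 95% interval (black), without each array in turn (blue ticks), with 32 added to the linear signals (triangles) and under the other alternatives (grey dots). Tlr9 alone has alternatives on both sides of 0. Leaving out an array could not turn the sign of Tlr7, Tlr8, Unc93b1, Pld3 or Pld4, whose groups do not overlap.

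The genes around these members were examined through 5 lists. Of 150 genes listed, 130 were measured on a row of their own symbol, and 20 were not analysed here. In the limma fit over all genes 1 of the 130 rose and 1 fell, beside a background of 1.81% of all genes called, and 128 did not pass. The median log2 difference was -0.0085, against -0.0024 over all genes. Without overlap between groups stood 38 of them, or 29.2%, against 19.3% of all genes. The lists were written with earlier results of these data known, so nothing is read from that share.

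The adaptors and kinases held the gene that rose. Irak3 encodes an IRAK family member without kinase activity that restrains Toll-like receptor signalling. Its signals were 9.84, 9.92 and 9.91 with DB2313, against 9.44, 9.46 and 9.38 with vehicle. Every DB2313 array was above every vehicle array, and the log2 difference was 0.46 (SE 0.06, limma adjusted p = 0.0113). The call was lost without DB2313 replicate 2 or 3 (adjusted p = 0.0573 and 0.0625), and likewise without vehicle replicate 1 or 3 (adjusted p = 0.0532 and 0.0509). No other of the 24 measured genes passed, and the median of the 24 was 0.02. Groups did not overlap for 10 of the 24 (5 higher, 5 lower), or 41.7%, against 19.3% of all genes. Nothing is read from that share. The widest difference of the list, also named after its values were seen, was that of Ticam2, at -0.60 (interval -0.92 to -0.28, limma adjusted p = 0.103). Named after their values were seen, Myd88, the adaptor of Tlr7, Tlr8, Tlr9 and Tlr13, had 0.01 (interval -0.14 to 0.16, limma adjusted p = 0.965), and Ticam1, which encodes TRIF, had 0.04 (interval -0.26 to 0.34, limma adjusted p = 0.938).

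The folding, trafficking and processing genes held the gene that fell. Ap4b1 encodes the beta subunit of AP-4, an adaptor complex that sorts cargo at the trans-Golgi network. Its signals were 8.89, 9.01 and 9.001 with DB2313, against 9.80, 9.80 and 9.60 with vehicle. The groups lay 0.59 apart at their nearest, and Ap4b1 fell by 0.77 on the log2 scale (SE 0.08, limma adjusted p = 0.00464). It passed without each of the 6 arrays in turn (adjusted p from 0.00872 to 0.0296). The other 28 measured genes did not pass. Groups did not overlap for 12 of the 29 (7 higher, 5 lower), or 41.4%, against 19.3% of all genes. Nothing is read from that share. The largest rise of the list, also named after its values were seen, was that of Ctsb, at 0.28 (interval 0.13 to 0.43, limma adjusted p = 0.0939). Chosen after their values were seen, Hsp90b1, the endoplasmic reticulum chaperone of Toll-like receptors, had -0.04 (interval -0.18 to 0.11, limma adjusted p = 0.867), and its co-chaperone Cnpy3 had 0.08 (interval -0.08 to 0.23, limma adjusted p = 0.709).

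No gene passed in the other 3 lists. Among 19 further lysosomal nucleases and carriers (median -0.05, 3 with an unadjusted p under 0.05), the smallest p belonged to Acp2, a lysosomal acid phosphatase, with 0.26 (limma adjusted p = 0.160), followed by Sidt2, a lysosomal membrane protein that takes up RNA and DNA, with -0.15 (limma adjusted p = 0.314). Among 27 cytosolic sensors and nucleases (median -0.03, 3 with an unadjusted p under 0.05), Mndal, a nuclear protein of the interferon-inducible IFI200 family, had -0.44 (limma adjusted p = 0.123), and Cgas, the cytosolic DNA sensor, had -0.21 (limma adjusted p = 0.165).

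The 31 interferons, interferon response genes and cytokines stand downstream of the sensors, and their median log2 difference was -0.0055 with 4 at an unadjusted p under 0.05. The chemokine gene Ccl3 had signals of 8.81, 8.97 and 8.95 with DB2313, against 9.17, 9.17 and 9.27 with vehicle, a difference of -0.30 (interval -0.46 to -0.13, limma adjusted p = 0.112). Il12a, encoding a subunit of interleukin 12, had -0.29 (interval -0.45 to -0.13, limma adjusted p = 0.114). Differences in this list ran from -0.30 to 0.18. Ifnb1, the gene of interferon beta, named after its values were seen, was at 3.34 ± 0.10 with DB2313 and 3.25 ± 0.14 with vehicle (SD, n = 3 each), a difference of 0.09 (limma adjusted p = 0.749). Like some others of this list, Ifnb1 lay below the 0.25 quantile of signal at 3.89, where array background can flatten a difference.

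The number called in these lists depended on how dim genes and variances were handled. Against the 2 of 130 given above, 12 of the 91 still tested passed when genes below the median signal were left out, where 7.2% of all genes passed. With the offset of 32 it was 12 of 130, beside 3.74% of all genes, and with a trended and robust prior 13 of 130, beside 4.15% of all genes. Nothing is read from these shares either, for the same reason as above: earlier results were known when the lists were written. The 3 settings had 10 genes in common. Of those 10, Acp2, Ap3b1, Ctsb and Irak3 were higher, and Ap4b1, Ccl3, Ifnar1, Ikbke, Il12a and Irak2 were lower.

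**Figure D5:**
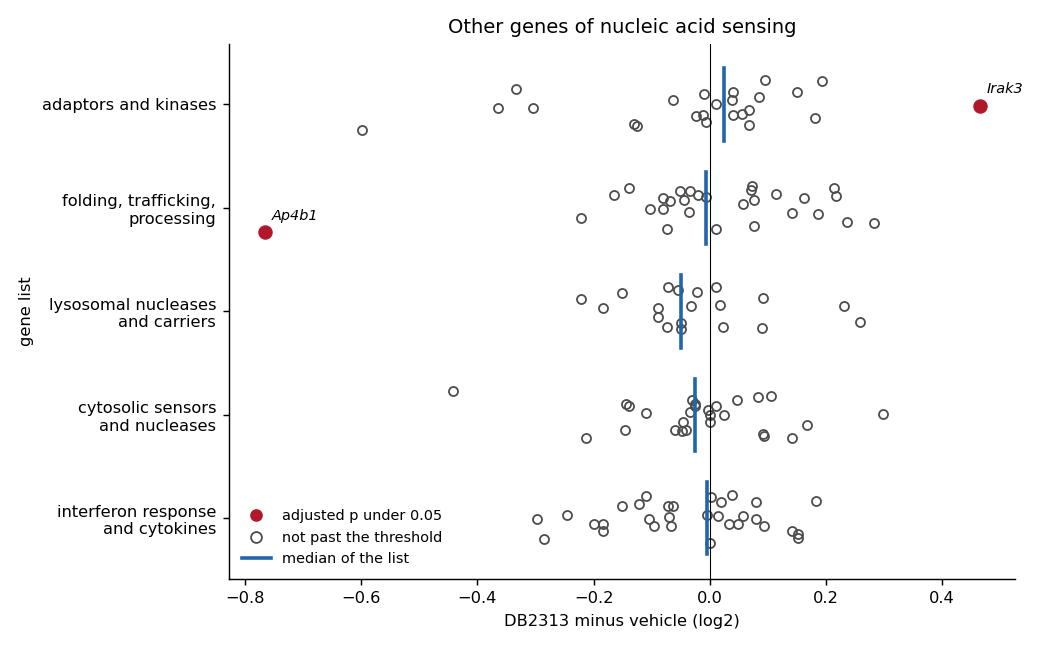
DB2313 minus vehicle (log2) for 130 genes in 5 lists, 1 point a gene, with the median of each list (blue bar). Filled points passed an adjusted p of 0.05 in limma over all genes. Irak3 and Ap4b1 are the filled points, and the 5 medians lie between -0.05 and 0.02.

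Genes next to the members were looked at after the members' values were known, taking up to 2 measured protein-coding genes on each side in RefSeq order. Of 32 such genes that are not members, 2 passed the limma fit, against 1.81% of all genes. Cep170b, a paralogue of the centrosomal protein gene Cep170 and the measured gene next to Pld4, rose. Its signals were 6.31, 6.41 and 6.37 with DB2313, against 5.79, 6.0003 and 5.77 with vehicle, a log2 difference of 0.51 (SE 0.08, limma adjusted p = 0.0230). That call was lost without any 1 array other than vehicle replicate 2 (adjusted p from 0.0713 to 0.101 in those 5 fits). Ahnak2, on the other side of Pld4, had -0.06 (limma adjusted p = 0.856). The second gene was Taf9b, a TFIID subunit that lies beyond Pgk1 from Tlr13, at 8.45 ± 0.09 with DB2313 and 7.35 ± 0.12 with vehicle (SD, n = 3 each), with a limma adjusted p of 0.00139.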

How the data were processed

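The deposited table holds log2 signals, 1 value per probe set and array, for 41345 rows and 6 arrays. The log2 scale was judged from the values. Affymetrix Expression Console made them, per the submitters' processing notes. The sources used here give neither its version nor the background correction, probe summary or genome build. Quartiles were nearly equal on all arrays, so the values had probably been normalized before deposit. Rows with 1 symbol in the platform annotation (23521) were kept and the brightest row per gene over the 6 arrays was taken, leaving 22180 genes. Rows with several symbols (1814) or none (16010) were left out.

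Differences, intervals at 95% and p-values come from limma 3.58.1 in R 4.3.3 (lmFit and eBayes, 2-sided), with Benjamini-Hochberg adjustment over all genes at 0.05. The fit was also run on simulated data, with genes drawn independently and variances taken from its own prior. That run cannot show that these assumptions hold for the arrays. The number of arrays limits the precision. The plan named all members, Spi1, and from each list up to 4 genes called or, where none was, the 2 with the smallest p. It allowed markers only as counts, ranges and called genes. Every other gene named here, markers included, was added outside that plan. The members and lists were chosen with earlier results of these data known. The fit has no replicate block. RefSeq tables served for names, gene order and promoters. A planned search of protein sequences was not run.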

Additional observations from a re-analysis of the deposited data

How the results depend on the processing

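Against 401 genes called over the whole table, 799 were called when a filter at the median signal was set, 830 with the offset of 32, 920 with the trended and robust prior and 190 with the replicate number as a block, and between 136 and 187 without each array in turn. The share of these that were higher with DB2313 lay between 51.6% and 60.5%. Leaving out an array gave between 1 and 2 members called against 3, and between 1 and 2 of the other pathway genes called against 2. Those pathway genes numbered 4 with genes below the 0.25 quantile of signal left out, 12 with the median filter, 12 with the offset and 13 with the trended prior. The replicate block gave 2 members and 1 pathway gene, and Spi1, Cep170b, Unc93b1 and Irak3 (adjusted p = 0.0591) were not called; deviations of same-numbered arrays from their group means correlated at 0.02, 0.08 and 0.0083 across genes, and not every array correlated best with its own number, so the block is not read as a pairing. With the offset, Tlr7 had -0.56 and Pld4 0.53, and without each array in turn Tlr7 ranged from -0.99 to -0.82 and Pld4 from 0.82 to 1.03. The filter at the 0.25 quantile kept 6 of the 9 members and that at the median 5, so Tlr3, Tlr8 and Tlr13 had no value under either. Tlr9 ran from -0.02 to 0.09, and the other 8 members kept their sign under every alternative run for them, which says nothing about stability where the groups do not overlap. Acp2, Ccl3, Cgas, Il12a and Sidt2, not called in the reported fit, were called under 1 or more of the median filter, the offset and the trended prior. The cause of these shifts was not tested.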
